A study of Mus musculus with 2 samples.

Results

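The genes described are 10 genes of melanocytes and pigment synthesis, 3 enzymes that make melanin (Tyr, Tyrp1 and Dct), 6 proteins of the melanosome (Pmel, Mlana, Slc45a2, Oca2, Gpr143 and Rab38) and the regulator Mitf. They were taken by gene name, from a set drawn up with earlier results of these data known. Of the 12393 genes that a probe set could be named for, 9 were members, read by 15 of 20380 named probe sets, and Mlana was not analysed here. The signals come from back skin of 10-day-old mice, with 1 array for each genotype. The transgenic array, titled K14Ahr, holds RNA of mice in which keratinocytes carry a permanently active aryl hydrocarbon receptor (AhR), and the other array holds RNA of littermates without the transgene. In this mouse line, as known from its published description, the transgene is driven by the K14 keratin promoter, which is active in basal keratinocytes and the outer root sheath of the hair follicle, and not in melanocytes. The labels give neither the strain, the coat colour, the sex nor how many animals an array holds. With 1 array per genotype there is no replicate error and no test, and every value below compares these 2 arrays only.

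Melanin is made in melanosomes, organelles of melanocytes that mature on protein fibrils and are then handed to keratinocytes. In mouse back skin most melanocytes sit in the bulb of the growing hair follicle, so pigment transcripts in whole skin follow the hair cycle as well as the melanocytes themselves. Mitf is the transcription factor that sets melanocyte identity, and it binds E-box sequences near the start of the enzyme genes. The receptor Kit and its ligand Kitl, made by keratinocytes and dermal cells, keep melanocytes alive. In RNA of a whole tissue, fewer melanocytes and less RNA per melanocyte cannot be told apart.

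The promoters of the 3 enzyme genes are shown because the enzymes had the lowest ratios of the members and each carries the same Mitf-type sequence. The windows run from 250 bases before to 50 bases after the annotated start and are from RefSeq, build GRCm38.p6, written 5′ to 3′ on the strand of the gene. Capitals mark CATGTG, an E-box form that Mitf binds, on either strand, where the other strand reads CACATG. Tyr lies at chr7:87493463-87493762 on the minus strand, Tyrp1 at chr4:80833963-80834262 on the plus strand and Dct at chr14:118052197-118052496 on the minus strand.
Tyr: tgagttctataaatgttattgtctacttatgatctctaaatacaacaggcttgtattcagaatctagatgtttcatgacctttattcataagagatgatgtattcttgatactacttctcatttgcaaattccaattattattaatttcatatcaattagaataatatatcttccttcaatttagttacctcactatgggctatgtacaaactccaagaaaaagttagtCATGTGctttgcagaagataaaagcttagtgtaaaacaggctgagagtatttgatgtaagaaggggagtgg
Tyrp1: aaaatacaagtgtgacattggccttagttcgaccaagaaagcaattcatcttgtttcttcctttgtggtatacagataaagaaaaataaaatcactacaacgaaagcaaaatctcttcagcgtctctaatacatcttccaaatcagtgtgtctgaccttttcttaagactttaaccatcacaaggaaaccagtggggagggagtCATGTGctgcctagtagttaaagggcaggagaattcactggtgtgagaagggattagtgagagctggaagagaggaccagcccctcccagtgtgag
Dct: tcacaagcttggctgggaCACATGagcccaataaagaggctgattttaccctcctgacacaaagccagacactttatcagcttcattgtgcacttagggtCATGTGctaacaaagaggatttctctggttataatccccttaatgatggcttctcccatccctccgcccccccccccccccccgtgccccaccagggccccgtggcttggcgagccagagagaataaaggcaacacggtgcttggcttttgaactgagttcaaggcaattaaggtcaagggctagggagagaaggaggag
All 3 windows hold the longer form TCATGTGCT, known as the M-box, which contains CATGTG. It lay 22 to 14 bases before the annotated start in Tyr, 47 to 39 in Tyrp1 and 151 to 143 in Dct. Dct has a second CATGTG on the other strand, 232 to 227 bases before the start. Of all 32851 promoter windows of this length 0.408% hold TCATGTGCT and 14.2% hold CATGTG, both strands counted.

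Windows were at hand for 5 members, 7 in all. The Oca2 window, chr7:56239509-56239808 on the plus strand, is shown because it holds CATGTG on the other strand, 186 to 181 bases before the start, and is the only window of a member with GCGTG, the core that AhR and its partner ARNT bind, 47 to 43 bases before the start.
Oca2: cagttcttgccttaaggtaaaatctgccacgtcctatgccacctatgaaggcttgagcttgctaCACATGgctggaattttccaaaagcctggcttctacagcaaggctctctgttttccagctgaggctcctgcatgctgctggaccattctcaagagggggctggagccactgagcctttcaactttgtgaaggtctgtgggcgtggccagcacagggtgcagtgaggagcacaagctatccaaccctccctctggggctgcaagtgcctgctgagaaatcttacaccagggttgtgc
The 3 windows of Mitf hold neither of the short sequences. The core of the AhR site is common, in 32.4% of all windows. A match describes these letters only and shows no binding. Beyond the members, 10 measured genes have TCATGTGCT in a window, and the median of their log2 ratios (transgenic signal divided by wild-type signal) was -0.0041, with 5 below 0, 1 higher by 2-fold or more and 0 lower by as much. The 753 other measured genes with CATGTG had a median of -0.054, and the 6413 without it had one of -0.048.

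Each array gave 22690 probe set signals with medians of 49.1 on the transgenic and 50.7 on the wild-type array. A probe set is a group of short probes read as 1 signal intensity. A gene was represented by its brightest probe set, and it counted as measured if that lay above a floor of 34.7 on at least 1 array. Of 8894 measured genes, 1.09% were at least 2-fold lower on the transgenic array, 2.27% were at least 2-fold higher, 56.4% had a log2 ratio below 0, and the median log2 ratio was -0.05. As a technical measure, log2 ratios of 2 probe sets of a gene differed by a median of 0.21, and the 95th percentile of 5355 such differences was 0.75. The 2 probe sets of Ahr had log2 ratios of 0.32 and 0.44, and whether they read the transgene is not known.

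Pigment genes were lower on the transgenic array. Of the 9 measured members 3 were at least 2-fold lower, against 1.09% of all measured genes and 1.31% of those within the members' range of signal, 0 were at least 2-fold higher, against 2.27%, and 8 had a log2 ratio below 0, against 56.4%. These 8 were also at least 1.5-fold lower, against 6.38% of all measured genes. They include Gpr143, which was above the floor on the wild-type array only and could not have come out higher, and of the 8 members above the floor on both arrays 7 were below 0, each by at least 1.5-fold. The 3 that passed 2-fold were the 3 melanin enzymes. The median log2 ratio of the 9 was -0.83, and of the 12 member probe sets that exceeded the floor on each array 11 lay below 0. The members share a cell type and were read on the same pair of arrays, so they are not independent readings.

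**Figure D1:**
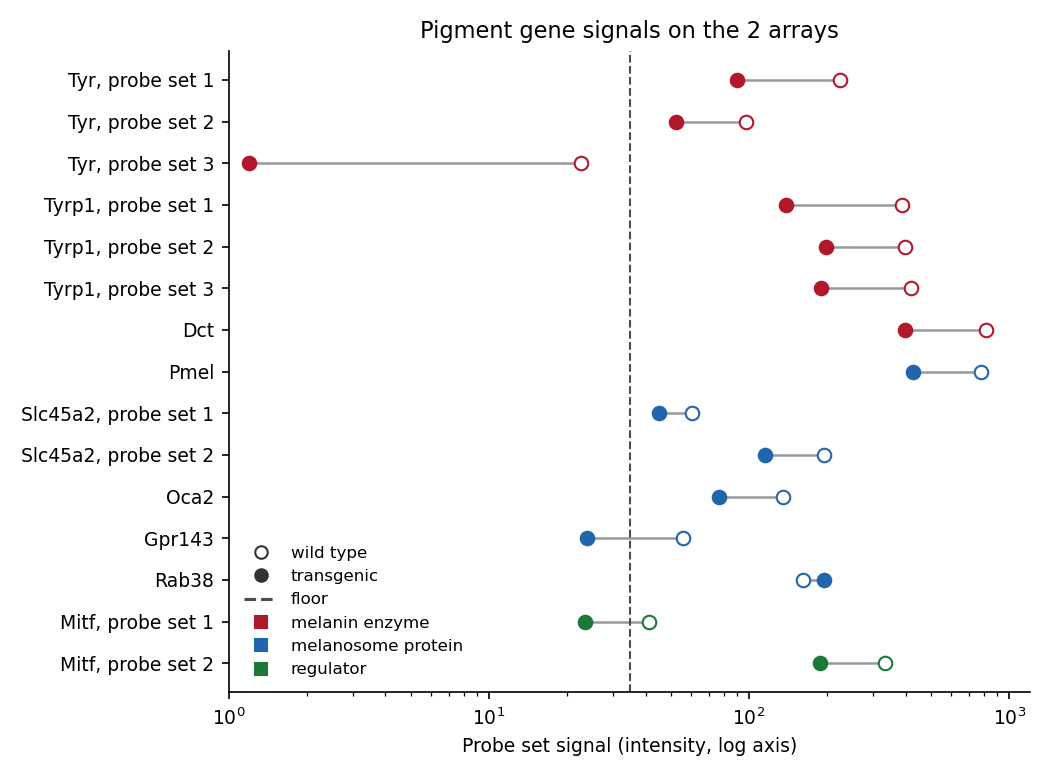
Signal of each of the 15 member probe sets (x axis, intensity, log scale) on the wild-type array (open circles) and the transgenic array (filled circles), coloured by role, with the floor of 34.7 as a dashed line. The transgenic signal is the lower of the pair for every probe set except that of Rab38 (195 against 162).

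Tyrosinase, the product of Tyr, carries out the first and rate-limiting step from tyrosine to melanin. The brightest Tyr probe set read 90.2 on the transgenic and 224 on the wild-type array, 2.49-fold lower (log2 ratio -1.31). That probe set has a name suffix that marks several transcripts of a gene. A probe set without a suffix read 52.4 against 97.5, a log2 ratio of -0.90. The other one without a suffix was dimmer than the floor throughout, at 1.2 and 22.5, and gives no ratio. Both Tyr probe sets above the floor were thus lower on the transgenic array, but whether Tyr passes 2-fold depends on the probe set.

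Tyrp1, which acts late in the synthesis of black eumelanin and stabilises tyrosinase, was read by 3 probe sets, each above the floor on the 2 arrays. They read 139 against 386, 197 against 399 and 189 against 419, transgenic before wild type. The log2 ratios were -1.48, -1.02 and -1.15, so each reading was past 2-fold. The brightest gives 2.22-fold lower, and its suffix marks possible binding of other transcripts, while the other two carry no suffix.

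Dct, dopachrome tautomerase, converts an intermediate between the steps of Tyr and Tyrp1 and marks melanoblasts as well as pigmented cells. Its 1 probe set read 398 against 814, 2.05-fold lower (log2 ratio -1.03). It stood just past the 2-fold limit. Ranked from the lowest ratio, Tyr was at 29, Tyrp1 at 54 and Dct at 86 of the 8894 measured genes.

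Among melanosome proteins, 4 of the 5 measured were lower on the transgenic array. None of the 4 above the floor on both arrays reached 2-fold, and for Gpr143 the ratio is a bound that does not settle it. Pmel forms the fibrils on which melanin is laid down, and it read 426 against 782 (log2 ratio -0.88, 1.84-fold lower). Oca2, a membrane protein that raises the pH of the melanosome, read 76.8 against 135 (log2 ratio -0.81, 1.75-fold lower). Slc45a2, a transporter that keeps the maturing melanosome from turning acidic, read 115.5 against 193 by its brighter probe set, a log2 ratio of -0.74. Its dimmer probe set read 45.2 against 60.6, a log2 ratio of -0.42, so both lay below 0 but differed in size.

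Gpr143, a melanosomal receptor that limits organelle size, read 23.9 against 55.8. The transgenic signal lay below the floor, so the ratio is a bound, at least 1.61-fold lower (log2 ratio at most -0.69). With the floor at percentile 20 the log2 ratio was -1.22, past 2-fold. Rab38, a small GTPase that routes the enzymes to the melanosome, differed from the other 8 in direction. It read 195 against 162, a log2 ratio of 0.27, and 82.0% of measured genes had a lower ratio. Rab38 is also made outside melanocytes, for instance in lung and platelets.

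Mitf was lower too. The brighter probe set read 187 against 332 (log2 ratio -0.83, 1.77-fold lower), at rank 199 of 8894 from the lowest. The dimmer probe set read 23.3 on the transgenic array, below the floor, and 41.2 on the wild-type array, a log2 ratio of at most -0.25 that could not have come out above 0. Mitf has several promoters used in different cell types, and which of its transcripts each probe set reads was not examined. By role, the median log2 ratio was -1.15 for the 3 enzymes and -0.74 for the 5 melanosome proteins, beside the single value of Mitf. The 5 include the bound of Gpr143, and the median of the 4 above the floor on both arrays was -0.78.

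**Figure D2:**
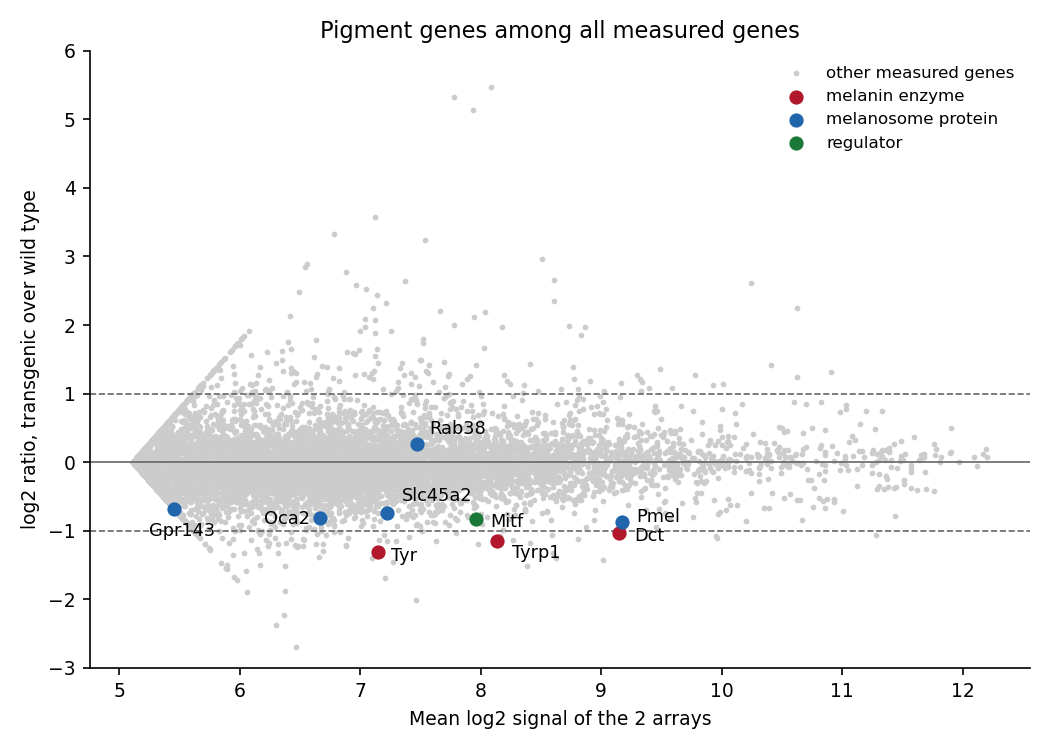
log2 ratio (transgenic over wild type) (y axis) against the mean log2 signal of the 2 arrays (x axis) for 8894 measured genes (grey) and the 9 members (coloured by role); dashed lines mark a 2-fold difference. The 3 enzymes lie below the lower dashed line, 5 other members lie between it and 0, and Rab38 lies above 0 at 0.27.

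The other genes of the pigment pathway differed less. Of 72 listed genes 44 were measured, with a median log2 ratio of -0.19. Lower by 2-fold or more were 2, against 1.09% of all measured genes, and 1 was higher by as much, against 2.27%. A log2 ratio below 0 was found for 29, against 56.4%. These 29 include 5 bounds, above the floor on the wild-type array only, which could not have come out higher. Mlph, 1 of the 2 past 2-fold, is such a bound. Of the pathway genes above the floor on both arrays Kitl had the lowest ratio by its brightest probe set. Its probe sets above the floor read 101 against 223, 50.1 against 99.5 and 73.2 against 91.0, with log2 ratios of -1.14, -0.99 and -0.31, and another lay below the floor (14.6 and 27.0). The mean over its probe sets above the floor was -0.82, short of 2-fold. Its receptor Kit, which mast cells carry as well, read 71.9 against 98.7, a log2 ratio of -0.46, and its second probe set was under the floor (31.2 and 27.3).

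Sox10, the neural crest factor that acts upstream of Mitf and is shared with Schwann cells, read nearly the same on both arrays. Its 3 probe sets gave 76.2 against 78.8, 44.5 against 40.4 and 49.0 against 44.8, with log2 ratios of -0.05, 0.14 and 0.13. Ednrb, the endothelin receptor of melanoblasts, was as close, with 98.2 against 96.3 and 68.7 against 69.6 (log2 ratios 0.03 and -0.02). Pax3, a partner of Sox10 at the Mitf promoter, lay below the floor on both arrays, as did Mc1r, the receptor that switches melanocytes to eumelanin, and Edn3, the ligand of Ednrb. Asip, the pigment switching antagonist of Mc1r, and Slc24a5, an ion exchanger of the melanosome, were not analysed here.

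Among 8 measured regulators the median was -0.12. Snai2, a zinc-finger factor of neural crest cells that basal keratinocytes and fibroblasts also express, was 2.56-fold higher (91.1 against 35.6), the only pathway gene past that limit upwards at this floor. Its wild-type signal lay just above the floor, and with a floor at percentile 60 its log2 ratio was at least 0.37. Tfeb, a relative of Mitf that drives lysosome genes, had a log2 ratio of at most -0.98 (24.8 against 68.5), which was -1.47 with the floor at percentile 20, and Tfap2b one of -0.82 (42.6 against 75.4). The 8 measured signals and receptors had a median of -0.33, with Corin, a protease of the dermal papilla that modifies Asip action, at -0.77 (42.7 against 72.8). Over the 5 genes left without suffixed probe sets that median was -0.67.

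Melanosome transport was uneven. The tripartite complex that holds melanosomes at the cell edge consists of Rab27a, Mlph and Myo5a. Mlph read 31.8 against 73.2, at least 2.11-fold lower, and a second probe set was dim throughout (1.7 and 1.0). With a floor at percentile 60 the Mlph bound was -0.05, and with a pseudocount its log2 ratio was -0.90, both short of 2-fold. Myo5a read 58.1 against 85.2 (log2 ratio -0.55), and its dimmer probe set read 32.1 against 57.1 (at most -0.72). Rab27a read 38.4 against 37.8 (log2 ratio 0.02), close to the floor, and its other probe sets were below it. Over the 6 measured transport genes, which include the general trafficking genes Dctn1 and Dctn2, the median was 0.04.

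Of 18 measured genes of melanosome biogenesis, 13 lay below 0, against 56.4% of all measured genes, and the median was -0.19. Most of the 18 also serve lysosomes in other cells. The 13 include 2 bounds, above the floor on the wild-type array only, which could not have come out higher. None of the 16 above the floor on both arrays reached 2-fold. Vps33b, of the vesicle tethering machinery, is a bound of at most -0.59 (22.3 against 52.4), and with the floor at percentile 20 it was at -1.23, past 2-fold. The lowest of those above the floor on both arrays was Sytl2, a Rab27 effector (131.0 against 248.6, log2 ratio -0.92), and the highest Dtnbp1, a subunit of the sorting complex BLOC-1 (126 against 88.0, 0.52). Of the 4 measured ion transport genes Trpm1, the melastatin channel of melanocytes, was lowest (97.2 against 155, log2 ratio -0.67).

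A second list of 12 genes often used to mark melanocytes had a median nearer 0, at -0.14. Its 8 measured genes ran from -0.95 to 0.28, so the median does not describe each of them. Below 0 were 6, against 56.4% of all measured genes, and none reached 2-fold. Gpnmb, a melanosomal glycoprotein related to Pmel, was lowest (505 against 974, log2 ratio -0.95). Macrophages express Gpnmb too, and the macrophage list was higher on the transgenic array. The part of macrophages in the Gpnmb ratio was not tested. Tspan10, a tetraspanin of pigment cells, followed at -0.68 (42.4 against 68.1), and Erbb3, an epithelial as well as neural crest receptor, was highest at 0.28. Of 10 Schwann cell markers 6 were measured, from -0.35 to 0.38 with a median of 0.04.

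**Figure D3:**
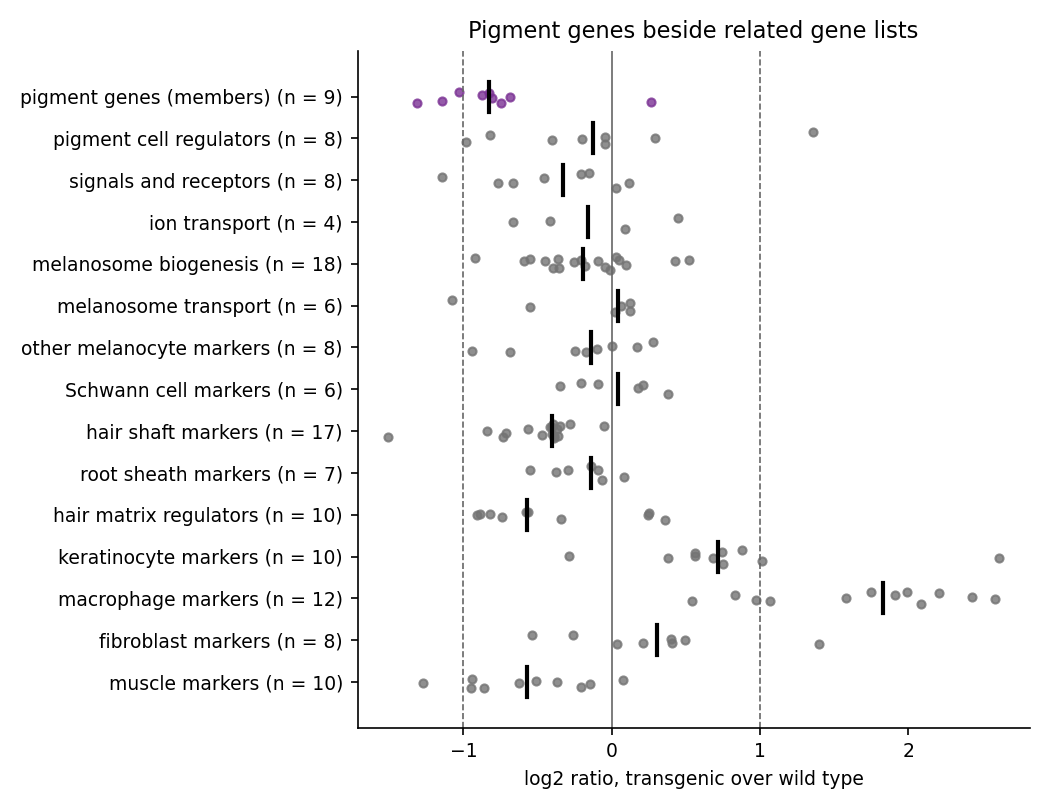
log2 ratio (transgenic over wild type) (x axis) for each measured gene of the members (purple) and of 14 other lists (grey), with medians as black bars and 2-fold as dashed lines; vertical position within a list has no meaning. Of the lists drawn the members have the lowest median, -0.83, followed by hair matrix regulators and muscle markers at -0.57, and macrophage markers have the highest at 1.83. Without suffixed probe sets the muscle median was -0.86, below the members' -0.83.

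Hair genes mostly had log2 ratios below 0, and 1 of them passed 2-fold. All 17 measured hair shaft markers of 21 listed lay below 0, against 56.4% of all measured genes, with a median log2 ratio of -0.40. At least 2-fold lower was 1, Krt84, against 1.09% of all measured genes. The summed signal of the shaft markers was 30249 on the transgenic and 40144 on the wild-type array, and none of the 17 was at 0. The 7 measured root sheath markers had a median of -0.14, with 0 past 2-fold (summed signal 13951 against 15458). The 10 measured hair matrix regulators, most of them genes of the bulb where follicular melanocytes sit, had a median of -0.57. Of the 10, 7 lay below 0, against 56.4% of all measured genes, and 0 were past 2-fold at this floor. Among these, Bmp2 was lowest (36.4 against 68.4, log2 ratio -0.91) and Ptch1, the Hedgehog receptor, next (-0.89). Of the 9 measured members 8 lay below the medians of all 3 hair lists. Conversely 2 of the 17 shaft markers and 2 of the 10 matrix regulators lay below the members' median. The part of the hair genes in the pigment gene ratios was not tested.

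Macrophage markers and most keratinocyte markers were higher on the transgenic array, while most muscle markers were lower. Of 12 keratinocyte markers 10 were measured, 9 of them above 0 and 2 higher by 2-fold or more, against 2.27% of all measured genes. Their median was 0.71 (summed signal 18051 against 10253). All 12 of 12 macrophage markers were higher, 9 by at least 2-fold, with a median of 1.83 (3387 against 1070). Fibroblast markers had a median of 0.31 over 8 genes, 1 of them at least 2-fold higher, while their summed signal was slightly lower (9801 against 10181). Muscle markers, from the layer beneath the skin, had a median of -0.57 with 9 of 10 below 0 (5493 against 6947). At least 2-fold lower was 1, against 1.09% of all measured genes. It was Myh8 (26.4 against 83.8), a bound above the floor on the wild-type array only, which could not have come out higher. With the floor at percentile 60 that count was 0. The values are shares of the RNA on each array, and how far such shifts in composition enter the pigment gene ratios was not tested.

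**Figure D4:**
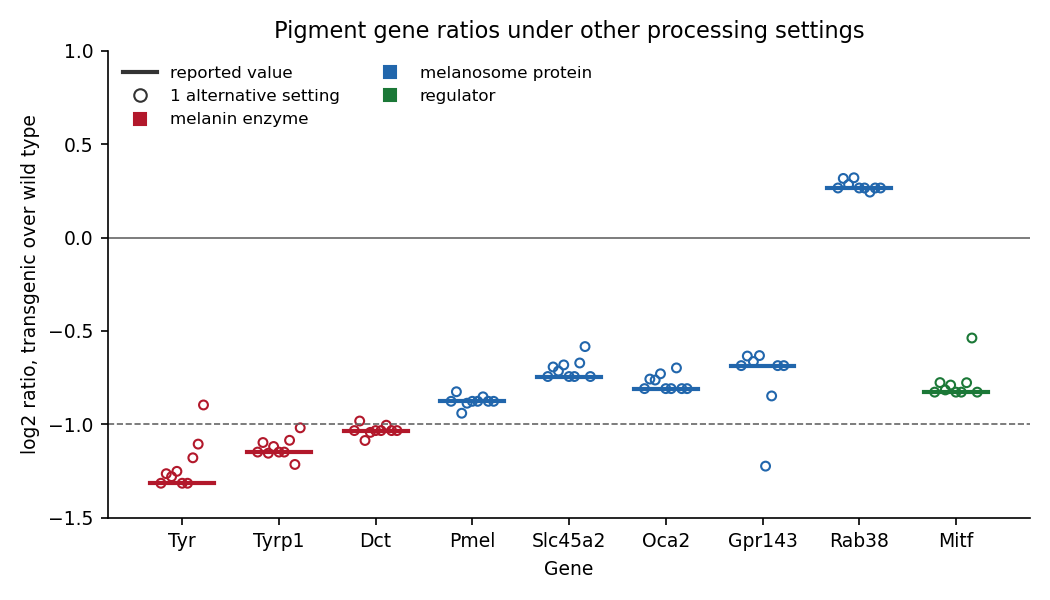
log2 ratio of each of the 9 measured members (y axis) as reported (bars) and under each alternative setting (open circles, up to 9 per gene), coloured by role; the dashed line marks 2-fold lower. Every circle stays on the side of 0 of its bar, Tyr is at -0.90 without suffixed probe sets, and Gpr143 is at -1.22 with a lower floor.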

How the data were processed

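Biotin-labelled total RNA of back skin was read on 1-colour arrays, per the labels. Each deposited value is a linear intensity of a probe set. Their 2% trimmed means were 100.03 on both arrays, so they were scaled before deposit. Neither the labels nor the table name the software. Of 22690 probe sets 64 were controls, 20380 had 1 gene in the platform annotation of 2016, and only these were named. Old symbols were replaced by way of gene identifiers with those of a GRCm38.p6 gene table, in which 29 were not found and kept their old symbol.

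Signals were scaled to equal trimmed means, raised to a floor at the 40th percentile of non-control signals and put on the log2 scale. A ratio with 1 array at the floor is a bound. Genes were counted at a 2-fold difference. The calculation was tested on simulated data with known fold changes. The simulated data hold no differences between animals, so they say nothing about the error of comparing 1 array with 1. Named are all members with every probe set, 13 genes acting closely with them, and at most the 2 highest and 2 lowest genes of each other list. Krt84 and Snai2 fall under the latter. Ahr, Lef1 and Pcsk1 are named outside these rules, Lef1 and Pcsk1 for passing 2-fold with the floor at percentile 20. The members and lists were chosen with earlier results of these data known. The alternatives were other scalings (none, median, quantile, lowess with span 0.4), floors at percentiles 20 and 60, a pseudocount of 16, the mean over probe sets, no suffixed probe sets, and limits of 1.5-fold and 3-fold. The analysis used Python 3.11.15 with numpy, pandas and statsmodels.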

Additional observations from a re-analysis of the deposited data

How the results depend on the processing

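All 9 measured members kept the sign of their log2 ratio under each alternative that gave a value. With the floor at percentile 60 Gpr143 was not measured. The members' median ran from -0.88 to -0.78. The number at least 2-fold lower, 3 as reported, was 2 with ratios centred on their median, where Dct was at -0.98, and 2 without suffixed probe sets, where Tyr was at -0.90. It was 4 with the floor at percentile 20, where Gpr143 was at -1.22. With a limit of 1.5-fold it was 8, and with 3-fold it was 0. No member passed 2-fold upwards under any setting. Mitf was at -0.54 as the mean of its probe sets. Kitl, Mlph and Snai2 each lost 2-fold under the settings named with their values. With the floor at percentile 20 Tfeb, at -1.47, Lef1, at -1.37, Vps33b, at -1.23, and Pcsk1, a hormone convertase, at 1.16, passed 2-fold, and Tfeb did so with the pseudocount (-1.05). Without suffixed probe sets the muscle median was -0.86, below that of the members. The ion transport, melanosome transport and Schwann cell medians changed sign between settings. Over all genes, the count at least 2-fold lower was 97, and it was 257 with the floor at percentile 20 and 45 at percentile 60. The count at least 2-fold higher was 202, 393 and 123. A lower floor lets more genes in and turns fewer ratios into bounds. No paired analysis was possible because each genotype has 1 array. The number of arrays limits the precision, and dim signals such as those of Gpr143, Mlph and Rab27a lie near the floor.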
